A study of Mus musculus with 16 samples.

Results

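The cytosolic ribosomal protein genes of mouse liver were followed through all 16 livers of a study of bile acid synthesis on a fatty diet. They were taken as every gene of the deposited table whose symbol begins with Rpl or Rps and a number, together with Rpsa, Rplp0, Rplp1 and Rplp2. Of 109 symbols that fitted the name pattern, 8 kinases of the Rps6k family and 18 symbols marked as pseudogenes were set aside, which left 83 genes of 12618. The 83 comprised 31 proteins of the small subunit and 45 of the large subunit. They also held 4 paralogs (Rpl22l1, Rps27l, Rpl36al and Rpl7l1) and 2 genes annotated as transcribed processed pseudogenes (Rps4l and Rpl37rt). The last member, Rps19bp1, encodes a protein that binds Rps19 and is no ribosomal subunit. Rack1, listed under its older symbol Gnb2l1, and Fau also encode parts of the small subunit or a precursor of one, but their names lie outside the pattern.

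The cytosolic ribosome reads messenger RNA with its small subunit and joins amino acids with its large subunit. Its proteins are made in matched amounts, since a subunit is built from 1 copy of nearly every one of them. Many of their messages begin with a short run of pyrimidines, a 5′ terminal oligopyrimidine (TOP) tract, through which mTOR signalling and the RNA-binding protein Larp1 control their translation and stability. In liver, ribosome content is known to follow feeding and growth signals.

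Messenger RNA was sequenced from 8 livers labelled Cyp7a1 CRISPR and 8 livers labelled control CRISPR. Both groups came from mice that had been given a Western diet for 8 weeks, and CRISPR is a method of gene editing. Cyp7a1 is the cholesterol hydroxylase that sets the pace of classical bile acid synthesis. The labels give no strain, age, sex, guide or delivery of the edit, and do not state that the livers came from different mice. The p-values therefore describe the spread among these 16 libraries, which may be partly technical.

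The Cyp7a1 transcript averaged 4702 ± 1126 normalized counts in the Cyp7a1-labelled livers and 3587 ± 1252 in control livers (SD, n = 8 each). It was thus not lower in the livers labelled as edited (log2 fold change 0.43, 95% interval 0.01 to 0.84, limma adjusted p = 0.227, two-sided exact permutation p = 0.0716). Every direction below rests on the labels, and the group is called Cyp7a1-labelled. The tissue label was met by all 12 hepatocyte markers looked at, among which Asgr1, a hepatocyte surface receptor, had the lowest mean at 7862 normalized counts over the 16 livers. Recovered reads per library ranged from 13.8 to 27.4 M (M, mega), and every member had at least 1 read in every liver. All 83 members passed the filter on low values.

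Most ribosomal protein genes were slightly higher in the Cyp7a1-labelled livers. The fold change lay above 0 for 77 of 83 members, against 50.9% of all genes tested, and its median was 0.11 on the log2 scale, or 8.0%, against 0.0034 for all genes. When the libraries were instead centred on the members' own mean, which takes the common shift away by construction, 43 of 83 lay above 0, with 1 called higher (1.35% of all genes) and 1 called lower (12.7%). The fold changes ran between −0.10 for Rpl36al and 0.46 for Rpl22l1, and 0 members reached 1.5-fold. Past the threshold of an adjusted p of 0.05 were 6 members, all higher, and 0 members were lower (limma with Benjamini-Hochberg adjustment over 12617 genes). That is 7.23% of the members, where 3.07% of all genes were called higher and 3.05% lower.

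At an unadjusted p under 0.05, 33 members were higher and 0 lower, where 10.1% of all genes were higher at that p. The Cyp7a1-labelled and control livers overlapped for each of the 83 members, while 0.507% of all genes lay wholly higher and 0.531% wholly lower in the Cyp7a1-labelled livers. All 8 Cyp7a1-labelled livers lay above the control mean for 20 members. The members varied little within a group, with a median SD of 0.112 on the log2 scale, against 0.174 for all genes. In these bulk samples, fewer cells of a type and less RNA per cell cannot be told apart.

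**Figure D1:**
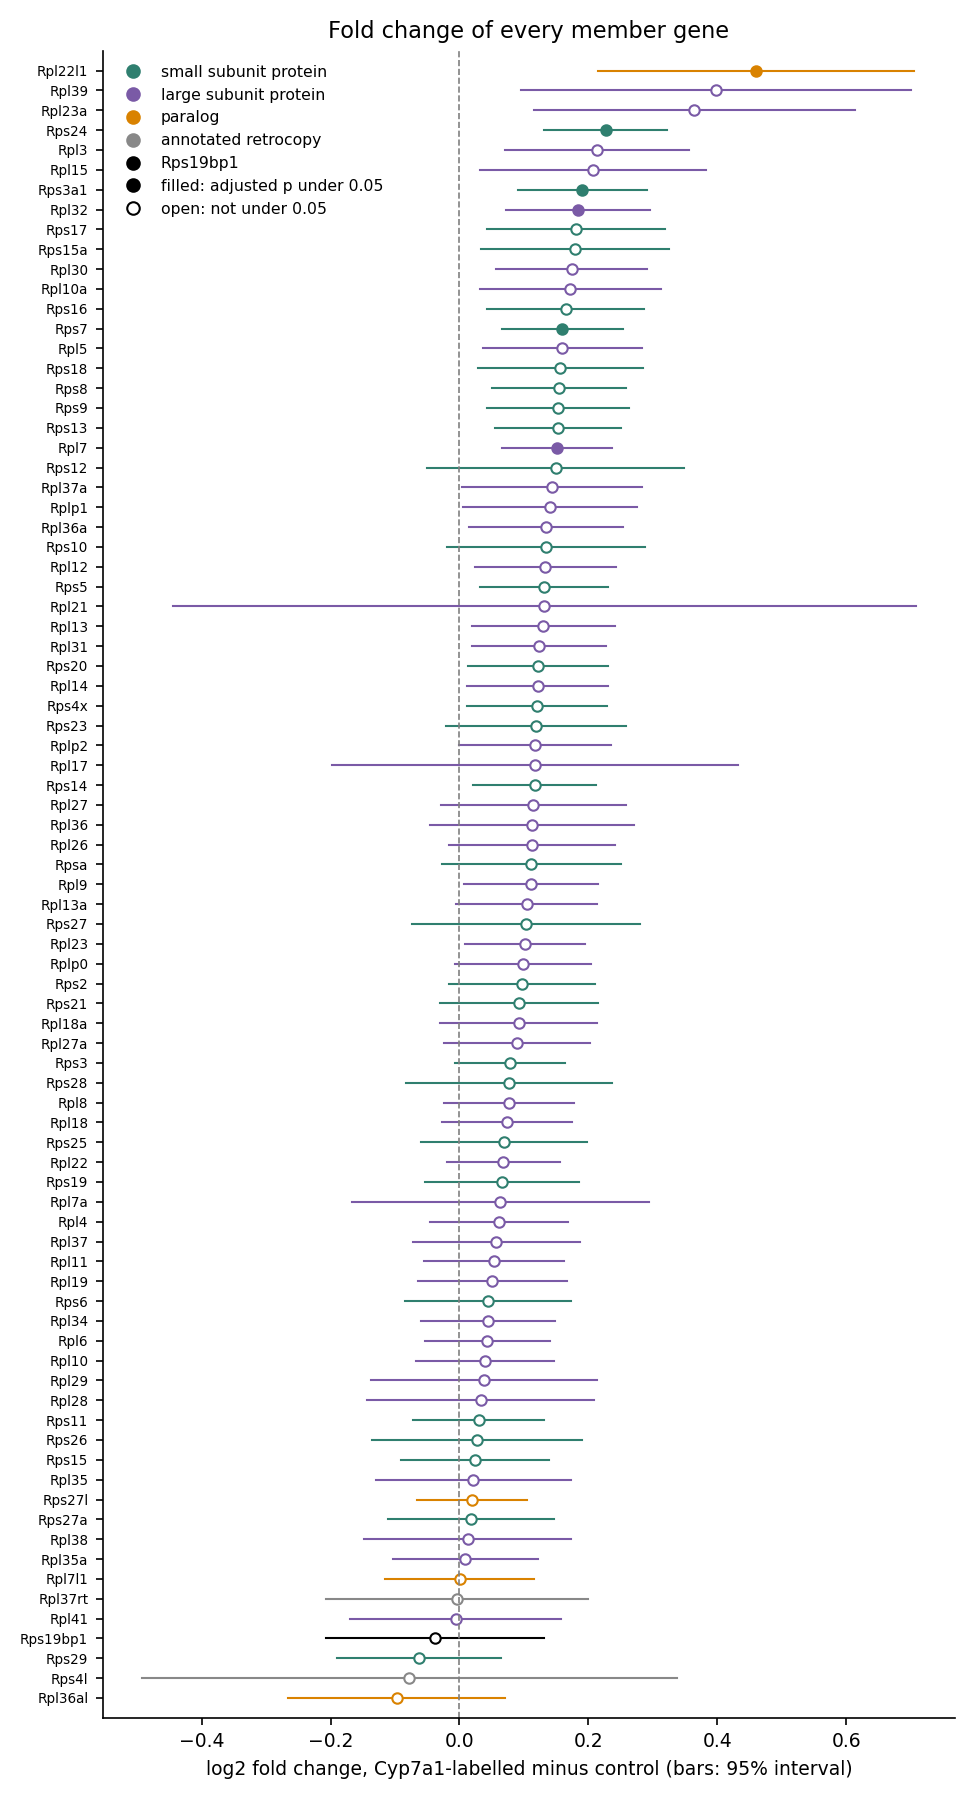
Log2 fold change (Cyp7a1-labelled minus control, n = 8 each) of each of the 83 members with its 95% interval, coloured by kind of gene and ordered by size. Most points lie a little right of 0 around the median of 0.11, the 6 filled points are the members with an adjusted p under 0.05, and Rpl22l1 lies farthest right at 0.46; when the libraries were centred on the members, 43 of 83 points lay right of 0.

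Of the 6 genes that rose, Rps24, Rps3a1 and Rps7 encode small-subunit proteins, Rpl7 and Rpl32 encode large-subunit proteins, and Rpl22l1 encodes a paralog that can take the place of Rpl22. The promoters of 4 of them are shown here from RefSeq on GRCm38.p6, 5′ to 3′ on the coding strand. Each runs from 60 bases before to 20 bases after an annotated start of transcription. They differ in whether a pyrimidine run lies at that start, which does not settle whether the message has a TOP tract. Capitals mark a run of at least 5 letters C and T that begins with C within 5 bases of the start, and the windows without capitals held no such run. Rps24 (chr14:24490618-24490697, plus strand) has 2 entries, of which the one with a run is given. The others are Rpl22l1 (chr3:28805448-28805527, plus strand), Rps7 (chr12:28635934-28636013, minus strand) and Rps3a1 (chr3:86142649-86142728, minus strand).
Rps24: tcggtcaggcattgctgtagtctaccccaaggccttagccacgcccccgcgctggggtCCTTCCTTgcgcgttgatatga
Rpl22l1: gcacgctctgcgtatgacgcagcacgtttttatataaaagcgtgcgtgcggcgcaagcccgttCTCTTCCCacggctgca
Rps7: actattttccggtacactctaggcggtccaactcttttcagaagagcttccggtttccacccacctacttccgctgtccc
Rps3a1: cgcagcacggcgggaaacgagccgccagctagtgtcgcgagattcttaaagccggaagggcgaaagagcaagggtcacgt

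Rps24 (ENSMUSG00000025290, chromosome 14), a protein of the small-subunit body that is mutated in some families with Diamond-Blackfan anaemia in human, gave the smallest p of the members. It had 1026 normalized counts in the lowest, 1153 at the median and 1234 in the highest Cyp7a1-labelled liver, against 923, 973 and 1077 in control livers. The groups overlapped through a single control liver, Control 20, and 7 of 8 Cyp7a1-labelled livers lay above the highest control. The log2 fold change was 0.23 ± 0.05 (SE), or 17.0%, with a limma adjusted p of 0.0078.

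Rps3a1, another small-subunit protein, had 876, 910 and 954 normalized counts in the lowest, median and highest Cyp7a1-labelled liver, against 686, 797 and 915 in control livers. The Cyp7a1-labelled livers kept to a narrow band (907 ± 27.3, SD, n = 8), and 1 control liver lay inside it. Its log2 fold change was 0.19 ± 0.05 (SE), with a limma adjusted p of 0.0245.

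Rpl22l1 showed the largest fold change of all members. It had 133, 149 and 166 normalized counts in the lowest, median and highest Cyp7a1-labelled liver, against 78.3, 108 and 169 in control livers. A single control liver, Control 20, lay above every Cyp7a1-labelled liver, and the other 7 control livers lay below all of them. The log2 fold change was 0.46 ± 0.12 (SE), or 37.6%, with a limma adjusted p of 0.0265. The annotated gene Gm33051 overlaps Rpl22l1, and the strand setting of the counting is not given in the sources used here, so reads of the pair cannot be told apart.

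Its parent Rpl22, a large-subunit protein, was far more abundant per length and did not pass the test. Rpl22 had 1525 ± 63.1 normalized counts in Cyp7a1-labelled livers and 1455 ± 84.6 in control livers (SD, n = 8 each), a log2 fold change of 0.07 with a limma adjusted p of 0.389. Per kilobase of transcript, the mean level over the 16 livers was 248 normalized counts for Rpl22l1 and 3144 for Rpl22.

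Rpl7, a large-subunit protein with contacts to ribosomal RNA, had 2312, 2469 and 2607 normalized counts in the lowest, median and highest Cyp7a1-labelled liver, against 2051, 2209 and 2472 in control livers. Of the 8 Cyp7a1-labelled livers, 4 lay above the highest control liver. The log2 fold change was 0.15 ± 0.04 (SE), with a limma adjusted p of 0.0352.

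Rps7, whose protein takes part in assembly of the small subunit and can bind the p53 regulator Mdm2, had 1313, 1368 and 1507 normalized counts in the lowest, median and highest Cyp7a1-labelled liver, against 1132, 1270 and 1374 in control livers. Its groups overlapped, with 3 of 8 Cyp7a1-labelled livers above the highest control liver. The log2 fold change was 0.16 ± 0.04 (SE), with a limma adjusted p of 0.0414.

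Rpl32, a large-subunit protein, had 1006, 1095 and 1232 normalized counts in the lowest, median and highest Cyp7a1-labelled liver, against 847, 971 and 1111 in control livers. Here 4 of 8 Cyp7a1-labelled livers lay above the highest control liver. The log2 fold change was 0.18 ± 0.05 (SE), with a limma adjusted p of 0.0481. Cand2 overlaps Rpl32 in the annotation, so reads may be shared between them.

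**Figure D2:**
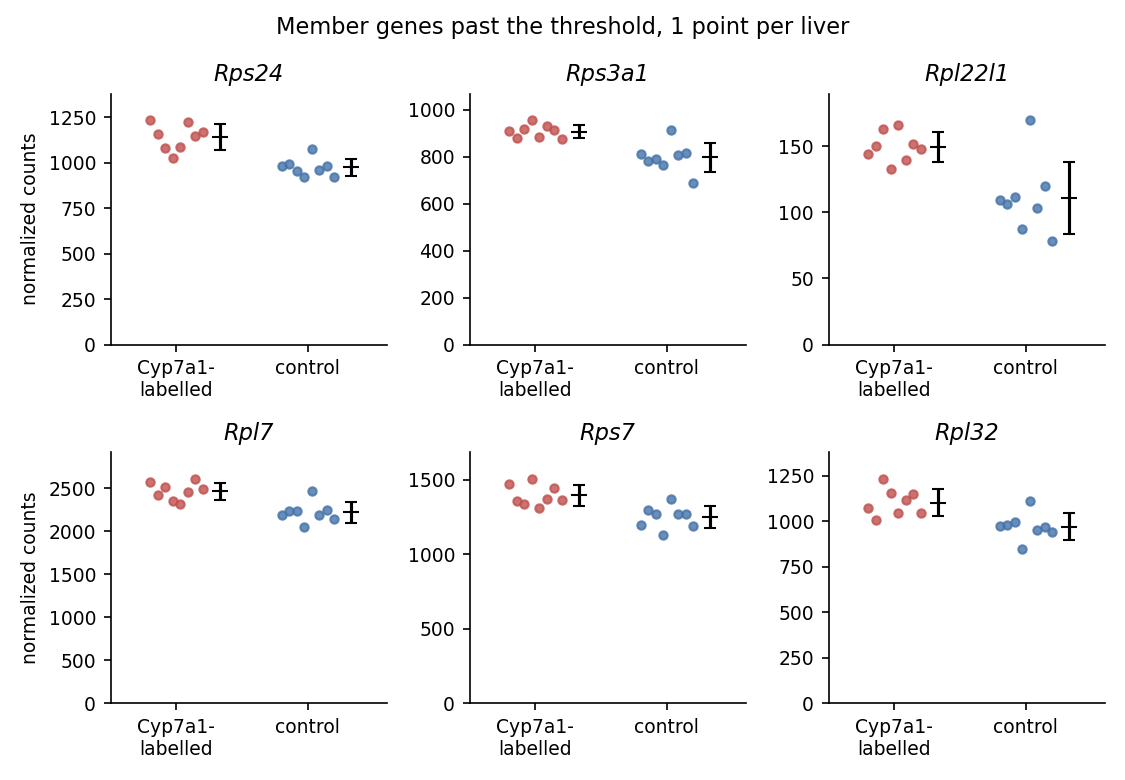
Normalized counts of the 6 members with an adjusted p under 0.05, 1 point per liver, Cyp7a1-labelled livers on the left and control livers on the right, with the mean and SD (n = 8 each) beside each group. In each panel most Cyp7a1-labelled livers sit above most control livers, and 1 control liver reaches or passes the lower part of the Cyp7a1-labelled range.

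These calls depended on single livers to different degrees. Rps24 stayed past the threshold whichever liver was left out. Rps3a1 lost its call without Control 16 (adjusted p = 0.0503), and Rpl22l1 lost it without Control 16 or Cyp7a1 28 (adjusted p up to 0.0562). Rpl7 lost its call in 9 of 16 such fits, and Rps7 and Rpl32 each lost theirs in 13. The count of higher members was 1 without Control 16, 2 without Cyp7a1 28, and 3 without Cyp7a1 2, Cyp7a1 26, Cyp7a1 36, Control 12 or Control 25. It was 10 without Control 20. In these fits 1.82% to 2.85% of all genes were called higher. When the libraries were scaled to equal totals, only Rps24 and Rpl22l1 of the 6 were called (2.08% of all genes), and Rps3a1, Rpl7, Rps7 and Rpl32 had adjusted p between 0.0610 and 0.103.

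Just outside the threshold stood Rps13 (adjusted p = 0.0594), Rpl3 and Rpl30 (both 0.0721). Rpl39 and Rpl23a had the next largest fold changes after Rpl22l1 and were not called. Rpl39, a small protein of the exit tunnel encoded on the X chromosome, had 152, 195 and 260 normalized counts in the lowest, median and highest Cyp7a1-labelled liver, against 86.0, 155 and 187 in control livers (log2 fold change 0.40, adjusted p = 0.113). Rpl23a, which lies at the tunnel exit where signal recognition particle docks, had 280, 315 and 402 in Cyp7a1-labelled livers, against 195, 246 and 355 in control livers (log2 fold change 0.36, adjusted p = 0.0773). Both genes overlapped between groups and varied more between livers than most members.

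The 3 most negative fold changes belonged to Rpl36al, Rps4l and Rps29, and 0 of them passed the test. Rpl36al, a paralog of Rpl36a, averaged 343 ± 31.5 normalized counts in Cyp7a1-labelled livers and 369 ± 49.6 in control livers (adjusted p = 0.544). Rpl36a itself, on the X chromosome, averaged 480 ± 35.4 in Cyp7a1-labelled livers and 437 ± 31.3 in control livers (adjusted p = 0.181). Rps29, a small zinc-binding protein of the small subunit, averaged 1018 ± 72.7 in Cyp7a1-labelled livers and 1066 ± 103 in control livers (adjusted p = 0.616).

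Rps4l, a copy of Rps4x, averaged 325 ± 76.0 normalized counts in Cyp7a1-labelled livers and 358 ± 163 in control livers, where Control 20 alone reached 744. Without that liver the log2 fold change of Rps4l was 0.09 in place of −0.08. Rps4x averaged 1201 ± 49.3 in Cyp7a1-labelled livers and 1108 ± 99.6 in control livers (adjusted p = 0.191).

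The remaining paralogs and copies had fold changes near 0. Rps27l, a paralog of Rps27 and in human a p53 target, had a log2 fold change of 0.02 (95% interval −0.07 to 0.10). Its parent Rps27 had 0.10 (95% interval −0.07 to 0.28). Rpl7l1, a paralog of Rpl7 with a part in assembly of the large subunit, had 0.00026 (95% interval −0.12 to 0.12), while Rpl7 was among the genes that rose. Rpl37rt, a retrocopy of Rpl37, had −0.0035 (95% interval −0.21 to 0.20), beside 0.06 for Rpl37 and 0.07 for Rps19. Rps19bp1 had −0.04 (95% interval −0.21 to 0.13). Differences between a paralog and its parent in their response were not tested.

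The P stalk, the 5S particle, Rps6, Rps27a and Rpl10 were looked at for their roles, and 0 of these members passed the test. In the P stalk, which recruits the elongation factors, Rplp0 averaged 3006 ± 222 normalized counts in Cyp7a1-labelled livers and 2803 ± 157 in control livers. Rplp1 averaged 2670 ± 225 in Cyp7a1-labelled livers and 2424 ± 236 in control livers, and Rplp2 averaged 915 ± 63.1 in Cyp7a1-labelled livers and 844 ± 70.3 in control livers. Their log2 fold changes were 0.10, 0.14 and 0.12, with adjusted p between 0.223 and 0.278.

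Rpl5 and Rpl11 form with 5S ribosomal RNA the particle that binds Mdm2 when assembly fails. Rpl5 averaged 1047 ± 28.9 normalized counts in Cyp7a1-labelled livers and 942 ± 100.1 in control livers (log2 fold change 0.16, adjusted p = 0.121), and Rpl11 averaged 1225 ± 56.5 in Cyp7a1-labelled livers and 1183 ± 102 in control livers (log2 fold change 0.05, adjusted p = 0.621). The annotated gene Fam69a overlaps Rpl5.

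Rps6, the substrate of S6 kinase below mTOR, averaged 928 ± 63.9 normalized counts in Cyp7a1-labelled livers and 902 ± 90.7 in control livers (log2 fold change 0.04, adjusted p = 0.758). Rps27a, made as a fusion with ubiquitin, averaged 490 ± 32.8 in Cyp7a1-labelled livers and 485 ± 47.0 in control livers (log2 fold change 0.02, adjusted p = 0.913). Rpl10, a late-joining protein near the catalytic centre, averaged 1668 ± 89.8 in Cyp7a1-labelled livers and 1626 ± 134 in control livers (log2 fold change 0.04, adjusted p = 0.730). Outside the name pattern, Rack1 had a log2 fold change of 0.08 (adjusted p = 0.384) and Fau one of 0.07 (adjusted p = 0.592).

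The subunits had close medians. Small-subunit genes had a median log2 fold change of 0.12 with 30 of 31 above 0 and 3 called. Large-subunit genes had a median of 0.11 with 44 of 45 above 0 and 2 called. Small nucleolar RNAs, which guide modification of ribosomal RNA, lie inside 30 of the members in the annotation, and all 30 of those had fold changes above 0 with a median of 0.12. The 53 members without one had a median of 0.09, with 47 above 0. Of the called genes, Rps3a1 and Rpl32 hold such RNAs. These splits were not tested against each other.

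Liver by liver, the members moved largely together, and the livers did not all follow their group. In the Cyp7a1-labelled group, 74 of 83 members lay above their own 16-liver mean in Cyp7a1 17 and in Cyp7a1 28, 73 in Cyp7a1 26, 62 in Cyp7a1 2 and Cyp7a1 36, and 61 in Cyp7a1 19. Cyp7a1 5 had 38 above and Cyp7a1 24 had 19. In the control group, 4 members lay above their own mean in Control 16, 8 in Control 13, 11 in Control 25, 14 in Control 35, 16 in Control 7, 28 in Control 12 and 42 in Control 38. Control 20 had 74 above. So by this count 6 Cyp7a1-labelled livers were high, 6 control livers were low, and Cyp7a1 24 and Control 20 lay with the other group.

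Control 20 was the highest control liver for 48 members, against 18.6% of all genes. Cyp7a1 24 was the lowest Cyp7a1-labelled liver for 41 members, against 19.5% of all genes.

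**Figure D3:**
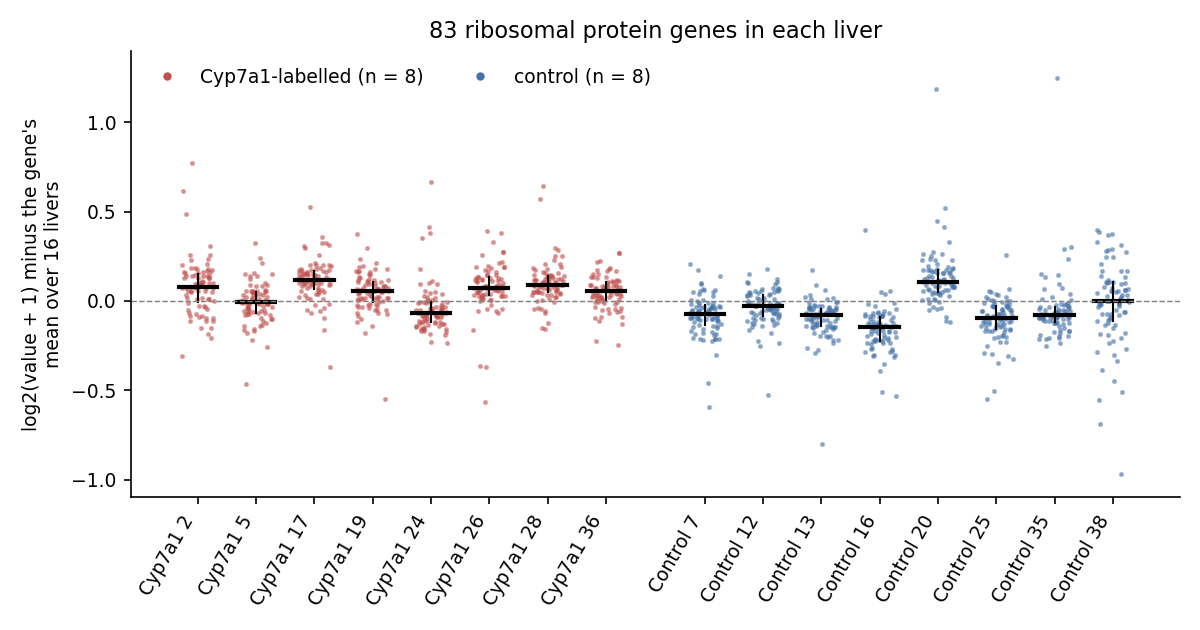
Deviation of each member from its own mean over the 16 livers on the log2(value + 1) scale, 1 column of 83 points per liver, Cyp7a1-labelled livers on the left and control livers on the right. Thick bars mark medians and thin bars run between the lower and upper quartiles. Control 20 sits high among controls at a median of 0.11, Cyp7a1 24 sits low at −0.07, and Control 38, the library with the fewest reads, shows the widest scatter.

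Markers of cell types also differed between livers. Summed over 10 recruited macrophage markers, Cyp7a1 24 had the highest level of its group at 4001 normalized counts and Control 20 the lowest of all livers at 1866. The range was 1911 to 4001 in Cyp7a1-labelled livers and 1866 to 4862 in control livers. Kupffer cell markers, 11 genes, summed to 24691 in Cyp7a1 24, with 6845 to 24691 over all Cyp7a1-labelled livers and 7709 to 13323 over control livers, where Control 20 was within the range of the others at 8980. Stellate cell and fibroblast markers, 11 genes, were highest of their group in Cyp7a1 24 at 16936 and lowest of all in Control 20 at 7446, with ranges of 9293 to 16936 in Cyp7a1-labelled livers and 7446 to 18249 in control livers. Hepatocyte markers, 12 genes, summed to between 1.77 M and 2.53 M normalized counts (M, mega) in Cyp7a1-labelled livers and between 1.71 M and 2.52 M in control livers. Cyp7a1 24 was the lowest Cyp7a1-labelled liver and Control 20 the highest control liver for that sum. The other livers did not all keep that order. Cyp7a1 5, with 38 members above their own mean, had the highest sum of all livers at 2.53 M. Cyp7a1 26, with 73 above, had 1.90 M, and Control 16, with 4 above, had 2.12 M. Of these 4 lists, only hepatocyte markers held calls between groups, with Tat and Tdo2 higher. Of the 12 hepatocyte markers 8 lay above 0, and their log2 fold changes ran from −0.22 to 0.84 with a median of 0.11. Tat, which breaks down tyrosine, had a log2 fold change of 0.84 (limma adjusted p = 0.0466), and Tdo2, which breaks down tryptophan, had 0.42 (limma adjusted p = 0.0322). Of 6 cholangiocyte markers 1 was called, Krt23, a keratin, which was lower (log2 fold change −2.15, limma adjusted p = 0.00065). The list as a whole did not fall with it, since 5 of the 6 lay above 0 with a median of 0.11. Their sum averaged 2320 normalized counts in Cyp7a1-labelled livers and 2196 in control livers. That sum was highest of all livers in Cyp7a1 24 at 3952 and lowest of all in Control 20 at 1105. Endothelial, lymphocyte, neutrophil, blood and cell cycle markers held 0 calls. Cell cycle markers summed highest of all livers in Cyp7a1 24 at 2184 and lowest of all in Control 20 at 1086. Lymphocyte and neutrophil markers were also highest of all in Cyp7a1 24, at 1621 and 224, but not lowest in Control 20. Endothelial markers were highest in Control 38 and blood markers in Control 25. The deposited table lacks genes of very low level, the lowest gene mean being 13.3, and some markers were absent from it. Present were 3 of 10 lymphocyte markers, 1 of 6 neutrophil markers (Csf3r) and 10 of 13 cell cycle markers. The part of these cell types in the members' levels was not tested. With Control 20 and Cyp7a1 24 both left out, a choice made after the values were seen, 18 members were called higher (3.04% of all genes), among them all of the 6 above, and the median log2 fold change was 0.15.

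The members together took a small share of the reads. They made up 0.441%, 0.468% and 0.508% of recovered reads in the lowest, median and highest Cyp7a1-labelled liver, against 0.402%, 0.455% and 0.467% in control livers. The mean share was 0.471 ± 0.0211% in Cyp7a1-labelled livers and 0.444 ± 0.0244% in control livers (SD, n = 8 each), and 4 of 8 Cyp7a1-labelled livers lay above every control liver. Cyp7a1 24 and Control 20, which stood apart by the count of members, did not do so by share. Cyp7a1 24 had 0.462%, above Cyp7a1 5, Cyp7a1 19 and Cyp7a1 36. Control 20 had 0.460%, below Control 13 at 0.467% and Control 12 at 0.464%. Rpl4 alone gave 8.97% of all members' reads.

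Levels per length were far from even, although the proteins are needed in near equal amounts. Over the 16 livers the mean level per kilobase of transcript ran from 72.1 normalized counts for Rpl21 to 5513 for Rpl4, a ratio of 76.5, with a median of 1198. Rpl8 (5131) and Rplp1 (5104) followed Rpl4 at the top, and Rpl29 (139) and Rps19bp1 (205) followed Rpl21 at the bottom. Each value depends on the transcript taken as the gene's length.

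Ribosomal protein genes have many processed copies, and 81 of the 83 members shared at least 1 stretch of 50 bases with a transcript of another annotated gene. The median member shared 61.2% of its stretches. Rpl21 shared 55.5% with 82 other genes, 81 of them annotated pseudogenes, and Rpl29 shared 78.5% with 84. Rpl4 shared 16.5% with 1 pseudogene and Rpl8 7.86% with 1. Yet Rps27 shared 98.7% and stood at 4257 normalized counts per kilobase. Across the 83 genes, which are not independent replicates, Spearman's rho between level per kilobase and shared sequence was −0.23, and that between shared sequence and fold change was 0.22.

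How the authors' counting treated reads that fit several genes is not given in the sources used here, so levels of members with much shared sequence are uncertain. Among the called genes the shared part was 30.6% for Rpl32, 53.3% for Rpl7, 61.5% for Rpl22l1, 68.7% for Rps24, 70.3% for Rps7 and 71.0% for Rps3a1. The 19 pseudogene entries in the table had a median log2 fold change of 0.16, with 16 above 0 and 0 called. Rpl10a-ps1 had 0.27 (limma adjusted p = 0.0824) and Rpl3-ps1 had 0.30 (limma adjusted p = 0.0880).

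**Figure D4:**
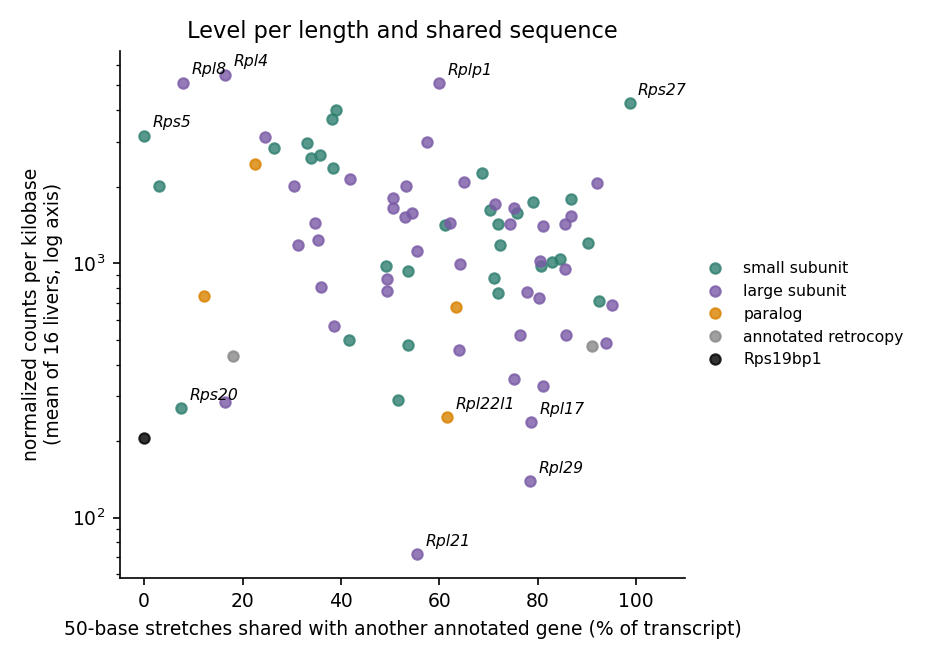
Mean level of each member over the 16 livers, in normalized counts per kilobase on a log axis, against the percentage of its transcript's 50-base stretches that also occur in another annotated gene. Rpl21 and Rpl29 lie lowest at 72.1 and 139, Rpl4 and Rpl8 lie highest with little shared sequence, and Rps27 is high although 98.7% of its stretches are shared.

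Promoter entries matched 62 of the 83 members. A pyrimidine run at the start, as defined above, was present in 29 of 62 members (46.8%), against 24.2% of the 9272 genes of the table with an entry. The 29 members with a run had a median log2 fold change of 0.10 with all 29 above 0, and the 33 without had a median of 0.10 with 29 above 0. Among sequences of 10 letters that read the same on both strands, TCTCGCGAGA was found in the most members, within 250 bases before to 50 bases after the start. It was present in 6 of 62 members (9.68%), against 1.13% of all genes with an entry, and was singled out for that count, so its share is a description. The next such sequences were present in 2 members each.

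Those 6 members were Rpl12, Rps6, Rps19, Rpl26, Rpl10a and Rps28. Windows of 4 of them follow, with the palindrome in capitals, to show that its distance from the start differs. They are Rpl12 (chr2:32961652-32961731, plus strand), Rps6 (chr4:86857348-86857427, minus strand), Rpl26 (chr11:68901506-68901585, plus strand) and Rpl10a (chr17:28328505-28328584, plus strand, the one of its 2 entries that holds the palindrome).
Rpl12: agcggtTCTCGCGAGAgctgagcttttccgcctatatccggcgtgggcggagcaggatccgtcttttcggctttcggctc
Rps6: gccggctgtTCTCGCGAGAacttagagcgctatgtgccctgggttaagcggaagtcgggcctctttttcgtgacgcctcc
Rpl26: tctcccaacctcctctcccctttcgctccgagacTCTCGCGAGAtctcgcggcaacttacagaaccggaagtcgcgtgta
Rpl10a: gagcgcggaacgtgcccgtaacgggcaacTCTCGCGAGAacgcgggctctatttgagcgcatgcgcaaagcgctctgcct

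The palindrome begins 54, 51, 26 and 31 bases before the start in Rpl12, Rps6, Rpl26 and Rpl10a. Fold changes of the 6 members with it had a median of 0.09 on the log2 scale and 0 were called. Other motifs were searched on both strands of the same windows and may overlap each other. GGAAG was present in 90.3% of members and 79.0% of all genes with an entry, AAGATGGC in 9.68% and 5.32%, GGGCGG in 64.5% and 67.8%, and TATAAA in 11.3% and 9.21%. A match is a description of these letters only.

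Genes that make or serve the ribosome were read from lists, beside the 3.07% of all genes called higher and 3.05% called lower. A list of 19 genes with TOP messages held translation factors together with genes of other roles, such as Npm1, Nap1l1 and Hnrnpa1. Of these 19, 1 rose, Eif3e, a subunit of initiation factor 3. Eif3e had 773 ± 44.0 normalized counts in Cyp7a1-labelled livers and 652 ± 85.4 in control livers (log2 fold change 0.26, limma adjusted p = 0.0413). All 19 lay above 0 with a median of 0.06, or 6 of 19 with a median of −0.04 when the libraries were centred on the members. Eif3e lost its call in 13 of 16 fits that left out 1 liver, with adjusted p up to 0.0761. Of 36 other translation factors, 5 rose (13.9%) and 1 fell. Of the 36, 27 lay above 0 with a median of 0.05, or 13 with a median of −0.05 when the libraries were centred on the members. Centring left 1 higher and 2 lower. The count higher was 4 or 5 when 1 liver was left out and 2 with equal totals, and the fall lost its call in 11 of 16 fits that left out 1 liver. Eif1a, which scans for the start codon with Eif1, had 609 ± 68.3 in Cyp7a1-labelled livers and 455 ± 46.0 in control livers (log2 fold change 0.42, limma adjusted p = 0.00345). Eif1 had 2827 ± 214 in Cyp7a1-labelled livers and 2366 ± 171 in control livers (log2 fold change 0.26, limma adjusted p = 0.00991). Etf1, the release factor, rose by 0.17 and Denr, which serves reinitiation, by 0.18 on the log2 scale (limma adjusted p = 0.0126 and 0.0192). With the libraries centred on the members, Eif1a kept its call (limma adjusted p = 0.00747). Eif1, Etf1 and Denr then lost theirs (limma adjusted p = 0.0796, 0.503 and 0.390).

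Of 33 genes of mTOR signalling to translation, 0 rose and 1 fell. In this list 16 genes lay above 0 with a median of −0.0076, and log2 fold changes ran from −0.43 to 0.92. There were 2 higher without Control 7, 2 higher and 2 lower without Control 13, 1 higher without Control 35, and 2 higher and 2 lower with DESeq2. Equal totals or quantile normalization gave 2 lower, and centring on the members 5 lower. Sesn2, an inhibitor of mTOR complex 1 that senses leucine, had 287 ± 43.8 normalized counts in Cyp7a1-labelled livers and 385 ± 44.8 in control livers (log2 fold change −0.43, limma adjusted p = 0.0105). Of 21 genes of RNA polymerase I and ribosomal RNA transcription 0 passed the test, with the smallest adjusted p at 0.0854 for Mxd4, and 1 was higher without Cyp7a1 2. Of 111 ribosome biogenesis factors 2 rose, and 82 lay above 0 with a median of 0.04, or 28 with a median of −0.06 when the libraries were centred on the members. Rpf2, which brings the 5S particle to the large subunit, had 117 ± 5.47 in Cyp7a1-labelled livers and 92.3 ± 11.1 in control livers (log2 fold change 0.34, limma adjusted p = 0.0115). Ddx21, a nucleolar helicase, rose by 0.22 (limma adjusted p = 0.0414) and lost its call in 10 of 16 fits that left out 1 liver. Of 12 p53 targets 0 passed, while 2 were higher without Control 7 and 1 without Cyp7a1 2, Control 25 or Control 35.

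The ribosome of mitochondria, encoded by other nuclear genes, served as a comparison. Of its 78 protein genes, 1 rose, Mrpl15, with 1200 ± 127 normalized counts in Cyp7a1-labelled livers and 993 ± 89.9 in control livers (log2 fold change 0.27, limma adjusted p = 0.0259). Mrpl15 lost its call without Cyp7a1 28, Control 12 or Control 16, with adjusted p up to 0.0562. Their median log2 fold change was 0.0043 with 41 of 78 above 0, beside 0.11 and 77 of 83 for the cytosolic genes. Of 78 nuclear subunits of oxidative phosphorylation 12 rose and 0 fell, with a median of 0.08, or −0.02 when the libraries were centred on the members. The share called higher was 15.4%, beside 7.23% of the members and 3.07% of all genes. The count higher was 4 to 12 when 1 liver was left out, with the fewest without Cyp7a1 28 or Control 16. The difference between the lists and the members was not tested.

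**Figure D5:**
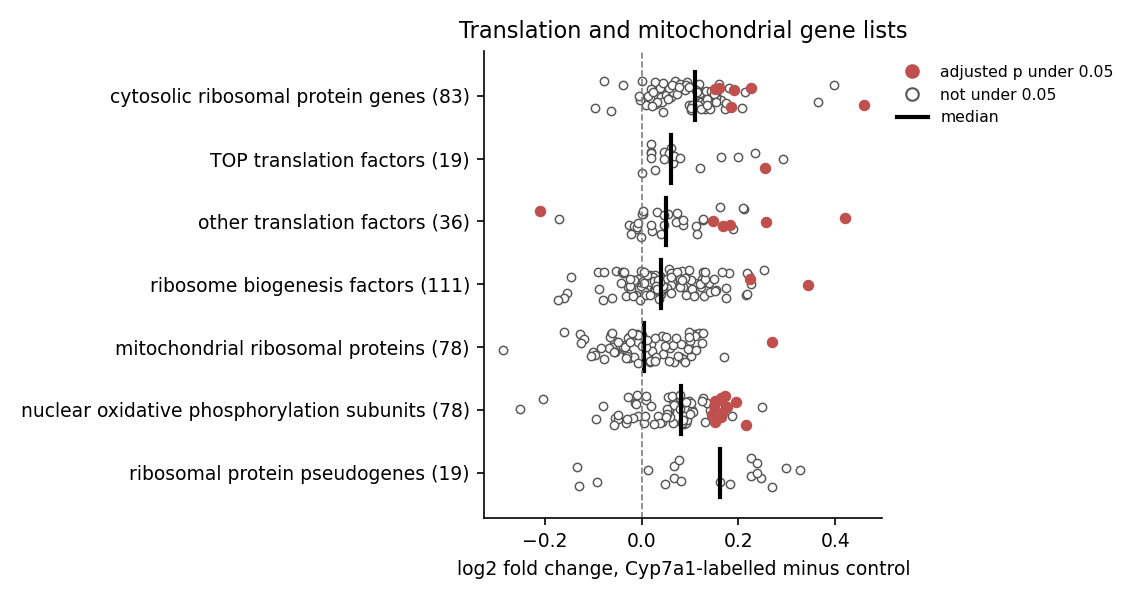
Log2 fold change (Cyp7a1-labelled minus control) of each gene in 7 lists, with list sizes in brackets, filled points for an adjusted p under 0.05 and a black bar at each median. The list named TOP translation factors also holds genes of other roles. The cytosolic ribosomal protein genes centre at 0.11, the mitochondrial ones at 0.0043 and the pseudogene entries at 0.16; centring the libraries on the cytosolic genes moves every point left by about 0.10.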

How the data were processed

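The deposited table holds one signal per gene and liver, normalized counts that the authors made by dividing reads by a size factor per library, as the whole-number steps of the values show. The submitters' processing notes name the build mm10 and, without their roles, DESeq2, featureCounts, STAR 2.7.11a, Trim Galore 0.6.10 and R 3.6.3. Per the labels' protocols, flash-frozen tissue gave total RNA for KAPA mRNA libraries. Division by each library's step made 99.94% to 99.99% of values whole, within 0.05 reads, and depth was 13.8 to 27.4 M reads (M, mega).

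Groups were compared with limma 3.58.1 (R 4.3.3; lmFit, eBayes with trend) on log2(value + 1). Two-sided p-values of 12617 genes were adjusted together by Benjamini-Hochberg, and the threshold was 0.05. Folds on this scale understate those of low genes. A minimum mean of 10 removed 0 genes. Ccne2 was left out because 1 cell held text. The steps were tested on simulated data.

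Members and lists were chosen with earlier results of these data known. Named genes are the called members, the 3 largest changes each way, paralogs with parents, the 3 highest and lowest per kilobase, members of set roles and, per list, up to 4 called genes or the 2 with the smallest p.

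Positions and transcript lengths come from GENCODE M21 (GRCm38), with the shortest consensus coding transcript as the length. Other settings were no filter, a minimum mean of 50, a pseudocount of 8, other scalings, array weights, edgeR 4.0.16 and DESeq2 1.42.0 on recovered reads, and leaving out livers. Protein sequences were not used here.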

Additional observations from a re-analysis of the deposited data

Results flagged for a closer look

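Within-group spread was examined in 70 groups of 8 livers, for the 33 named members and summed measures. The rule was the gap of the most extreme liver relative to the whole range (critical value 0.526). For the members it was taken on the log2(value + 1) scale, while the values below are normalized counts. Chance gives about 3.5 of 70, and 4 were found. Rps4l stood at 743.73 normalized counts in Control 20, with the other control livers between 215.96 and 369.82. Rpl10 stood at 1927.8 in the same liver, with the others between 1483.7 and 1670.7. Rpl37 stood at 1196.3 in Control 38, the library with the fewest reads, with the other control livers between 883.83 and 1018.8. Rpl29 stood at 105.49 in Cyp7a1 26, with the other Cyp7a1-labelled livers between 74.171 and 85.289.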

How the results depend on the processing

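No paired analysis was possible because the groups share no replicate numbers. The count of higher members, 6, was 6 with no filter, a minimum mean of 50, a pseudocount of 8 or TMM scaling, 7 with edgeR (3.02% of all genes) or quantile normalization (3.01%) and 9 with DESeq2 (4.34%), each including the 6. It was 14 with array weights (3.84% of all genes), 2 with equal totals (2.08%) and 2 with equal totals of non-members (Rpl22l1 and Rps24), and 18 without Control 20 and Cyp7a1 24. Leaving out 1 liver gave 1 to 10 higher and 0 lower, a median log2 fold change of 0.0894 to 0.126 and a difference in summed share of 0.0215 to 0.0317 percentage points. Centring on the members moved the median of all genes to −0.10 and that of the members to 0.0069, with 1 higher (Rpl22l1) and 1 lower (Rps29). Members above 0 then numbered 43 in place of 77. Among the 33 named members, signs turned for Rps27l (−0.0847), Rpl7l1 (−0.104), Rpl22 (−0.0360), Rps27 (−0.0012), Rpl37 (−0.0467), Rps19 (−0.0384), Rpl4 (−0.0426), Rpl8 (−0.0273), Rpl29 (−0.0660), Rplp0 (−0.0052), Rpl11 (−0.0504), Rps27a (−0.0865), Rps6 (−0.0602) and Rpl10 (−0.0646). These shifts are set by the centring; for the other settings the cause was not tested.

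Elsewhere the sign turned for members near 0. Rpl7l1 had −0.0022 with DESeq2, −0.0118 with array weights, −0.0021 with quantile normalization, −0.0070 with equal totals and −0.0066 with equal totals of non-members. Rpl37rt had 0.0064 with DESeq2, 0.0187 with array weights and 0.0047 with edgeR. Rps4l had 0.0866 without Control 20 and Cyp7a1 24. Leaving out 1 liver gave −0.0298 to 0.0238 for Rpl7l1, −0.0462 to 0.04996 for Rpl37rt, −0.168 to 0.0861 for Rps4l, −0.0794 to 0.0160 for Rps19bp1, −0.0131 to 0.0657 for Rpl29 and −0.0199 to 0.0526 for Rps27a. Subunits of oxidative phosphorylation called higher numbered 4 with equal totals, 8 with edgeR and 18 with DESeq2. Listed genes with TOP messages called higher numbered 0 with equal totals and 4 with DESeq2, and Eif3e, Etf1, Denr and Ddx21 were not called with equal totals. The smallest change called among the members was 11.1%.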
